A study of Homo sapiens with 6 samples.

Results

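The genes described here are 39 genes of the cell death machinery: BCL2 family members, caspases, inhibitor of apoptosis proteins (IAPs), and the adaptors and executors that act beside them. They were listed by name and looked up in a table of 56505 gene rows. All 39 were found, 38 under the listed symbol and 1, GSDME, under its older name DFNA5. The 6 RNA-seq libraries are labelled MDA-MB-468, an established line from a triple-negative, basal-like breast cancer, kept in medium with 10% serum and given no other treatment. A control short hairpin (shControl) was present in 3 of them. The cells of the other 3 carried a hairpin against cytokeratin 5, the basal keratin encoded by KRT5 (shCK5-22 in the labels, shCK5 here). Only 1 knockdown hairpin was used. No label says that replicates were grown apart, so the p-values reflect the scatter of these libraries, which may be technical.

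Apoptosis through mitochondria is decided by the balance of BCL2 relatives. Anti-apoptotic members such as BCL2L1 (which encodes BCL-XL) and MCL1 hold the pore formers BAX and BAK1 in check, and BH3-only proteins neutralise the first or activate the second. Released cytochrome c then assembles with APAF1 to activate CASP9, while death receptors activate CASP8 and CASP10 through FADD. IAPs act on caspases and on signalling below the tumour necrosis factor (TNF) receptor. RIPK3 with MLKL, and inflammatory caspases with gasdermins, carry out the lytic forms of death.

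Library totals ran from 68810882 to 83594772 counts. KRT5 had 2056, 2060 and 2017 CPM (a gene's counts as a share of the scaled library size, in parts per 1e6) in shControl. In shCK5 it had 17.21, 15.53 and 16.52 CPM (log2 fold change -6.96, SE 0.0369; edgeR adjusted p = 1.15e-34). RB1 and SMAD4 are deleted in MDA-MB-468. Their shControl means were 1.996 and 0.2346 CPM, and in shCK5 they reached 101 and 16.86 CPM, so a difference between cells and an effect of the knockdown cannot be told apart. Summed levels of 6 basal and of 6 luminal epithelial markers were 4149 to 4282 and 4937 to 5031 CPM in shControl and 819.2 to 851.7 and 1365 to 1391 CPM in shCK5. Markers of fibroblasts (7 genes), leukocytes (7) and endothelium (6) summed to at most 14.06, 6.953 and 7.193 CPM in any library. THY1 and CD68 were among those at 0 throughout.

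Cell death genes moved in both directions, with opposite tendencies in different roles. The anti-apoptotic genes BCL2, BCL2L1 and MCL1 and the IAP genes BIRC2 and BIRC3 were higher in shCK5, while 5 of 8 BH3-only genes and the inflammatory caspases were lower. Other members do not make this a split between survival and death genes. BAX, APAF1 and GSDME, which promote death, were also higher (log2 fold changes 1.13, 1.07 and 1.78), as were the BH3-only genes PMAIP1 and BAD. CFLAR, whose protein blocks CASP8 activation, was lower (-0.60). Each role holds few genes, and 40.9% of all genes tested were higher and 41.7% lower. Here and below, rose and fell mean higher and lower in shCK5 than in shControl at an adjusted p under 0.05. In bulk RNA a change in the share of cells that express a gene and a change in RNA per cell cannot be told apart. Of the 39 genes, 34 had enough counts to be tested and 5 did not. Of those 34, 15 rose, 16 fell and 3 did not pass. That is 91.2% called, against 82.7% of all 19567 genes tested (40.9% higher and 41.7% lower). Past 2-fold, 6 genes rose and 8 fell, 41.2% of the 34 against 44% of all genes (19.6% higher and 24.4% lower), so cell death genes were past 2-fold about as often as genes in general. The median log2 fold change was -0.06 against -0.02 over all genes, and the median of its absolute value 0.57 against 0.85. The libraries of the groups did not overlap for 32 of the 34, or 94.1%, against 84.2% of all genes. With libraries scaled by total count alone the median of all genes moved from -0.02 to -0.16 on the log2 scale, and 14 members were higher and 18 lower, with 4 and 8 of them past 2-fold.

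**Figure D1:**
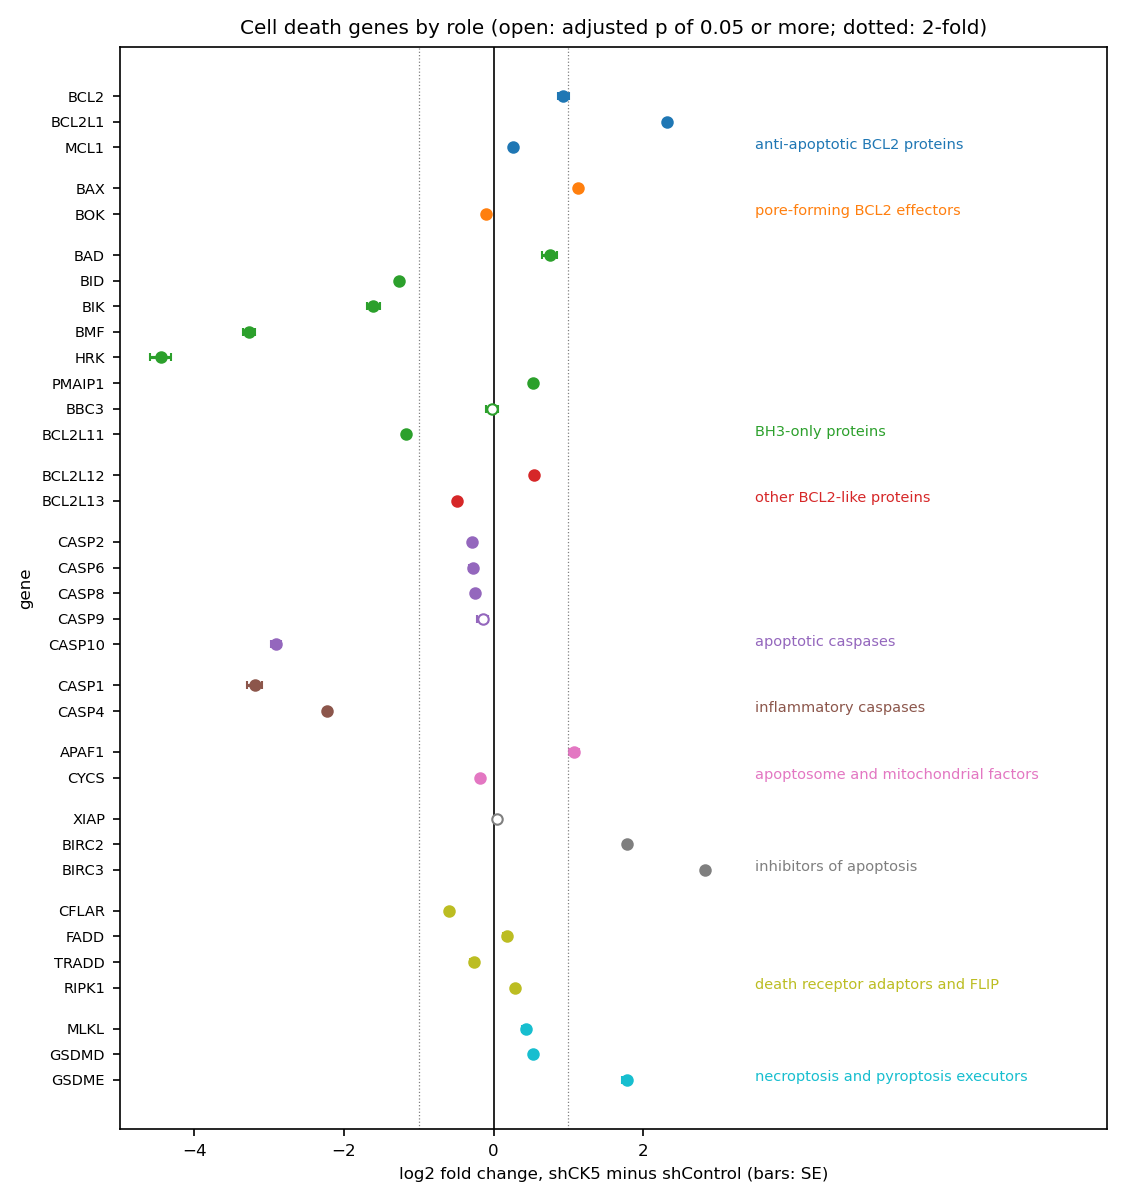
Log2 fold change (shCK5 minus shControl) of the 34 tested cell death genes, grouped by role; bars are standard errors of the fit over 3 libraries a group, filled points passed an adjusted p of 0.05 and dotted lines mark 2-fold. HRK, at -4.45, lies farthest to the left and BIRC3, at 2.83, farthest to the right.

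Among the anti-apoptotic proteins, BCL2L1 had the largest change of the 3 genes tested. BCL2L1 (ENSG00000171552.12, chromosome 20, 31664452 to 31723989, minus strand, GRCh38, protein-coding) had 94.3, 93.55 and 89.84 CPM in shControl, and 462.7, 466.7 and 450.6 CPM in shCK5. Every shCK5 library was above every shControl library, and the spread within a group was a few percent of the level. It rose by 2.31 on the log2 scale (SE 0.0288; edgeR adjusted p = 3.37e-28), a 4.97-fold rise from 92.56 ± 2.39 to 460 ± 8.42 CPM (SD, n = 3 each). BCL2L1 shares 43% of its exon bases with ABALON on the opposite strand, which is listed at 0, and no source used here gives the strand setting of the counting.

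MCL1 (chromosome 1, 150574551 to 150579738, minus strand), whose short-lived protein binds BAK1 and BCL2L11, had 217.2, 235.9 and 222.3 CPM in shControl, and 265.2, 271.3 and 271.5 CPM in shCK5. The groups did not overlap, but the rise was only 1.2-fold (log2 fold change 0.26, SE 0.0295; edgeR adjusted p = 1.61e-08). BCL2 itself (chromosome 18, 63123346 to 63320128, minus strand), the founding member of the family, was a low transcript with 6.121, 5.993 and 6.438 CPM in shControl and 11.36, 12.14 and 11.78 CPM in shCK5. It rose by 0.93 on the log2 scale (SE 0.0733; edgeR adjusted p = 1.66e-11), again with no overlap.

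BCL2L2 and BCL2A1, which encode BCL-w and BFL-1, had too few counts to be tested. BCL2L2 had 42 counts in all in shControl and 14 in shCK5. It shares 19.4% of its exon bases with the read-through gene BCL2L2-PABPN1 on the same strand, which had 2.274 and 3.869 CPM. BCL2A1 had 6 counts in shControl and none in shCK5, where a count of 0 allows up to 0.0132 CPM (3 counts over the 3 libraries, counting error only). In each library 63.08% to 65% of counts above 20 were even, and all 3 BCL2A1 counts in shControl were (4, 2 and 0), so this limit is too low where a fragment was counted once per mate.

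Per exon length (CPM per kilobase of exon), the anti-apoptotic genes summed to 78.77, 82.75 and 78.55 in shControl and 201.3, 203.9 and 199.1 in shCK5. The largest contributor was not the same gene in the groups. MCL1 held 64.3% ± 1.1 (SD, n = 3) of the sum in shControl and 30.6% ± 0.55 in shCK5, and BCL2L1 34.9% ± 1.1 and 68.9% ± 0.56. BCL2 stayed below 1% of the sum in every library. These sums add transcripts, not proteins, and were given no test.

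**Figure D2:**
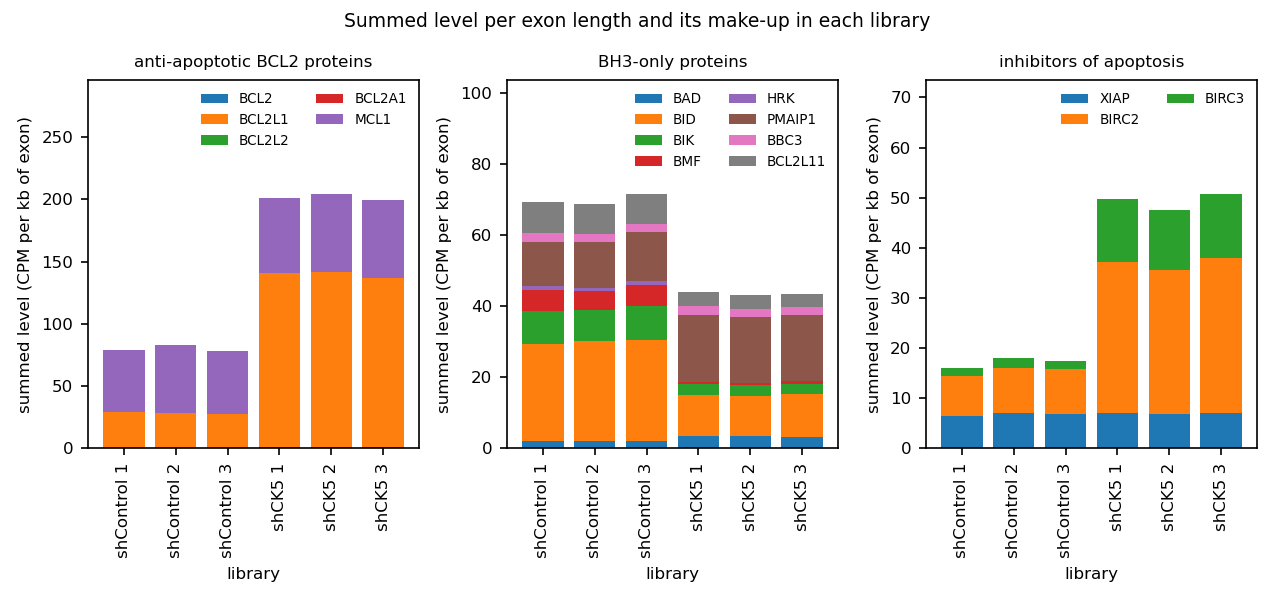
Summed level per exon length (CPM per kb) of anti-apoptotic BCL2 genes, BH3-only genes and inhibitors of apoptosis in each of the 6 libraries, with each gene's part in colour. The anti-apoptotic sum is 78.55 to 82.75 in shControl and 199.1 to 203.9 in shCK5, whereas the BH3-only sum is 68.89 to 71.52 and 43.15 to 43.97.

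Of the pore-forming effectors, BAX rose and BOK changed little. BAX (chromosome 19, 48954815 to 48961798, plus strand), which oligomerises in the outer mitochondrial membrane, had 54.54, 55.55 and 56.24 CPM in shControl, and 123.4, 117.7 and 122 CPM in shCK5. Its log2 fold change was 1.13 (SE 0.0314; edgeR adjusted p = 6.43e-21), and 0.99 with libraries scaled by total count alone. BOK, a less studied BAX relative, had 77.6 ± 1.28 and 72.39 ± 2.24 CPM (SD, n = 3 each), a log2 difference of -0.10 (SE 0.0327; adjusted p by edgeR = 0.007). Without shCK5 replicate 1 it was -0.07 and no longer passed (edgeR adjusted p = 0.0939). BAK1, the other main pore former, was listed at 0 in all 6 libraries, which was not read as lack of expression. Per exon length, BAX held 42.8% of the sum of BAX and BOK in shControl and 63.7% in shCK5.

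BH3-only genes, the sensors that set the other BCL2 relatives in motion, fell in 5 of 8 cases, rose in 2 and did not pass in 1. All 5 falls were past 2-fold and neither rise was. That is 87.5% called against 82.7% of all genes tested, and 62.5% past 2-fold against 44%. The median log2 fold change of the 8 was -1.22, against -0.02 over all genes tested. The largest falls were those of HRK and BMF.

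HRK (chromosome 12, 116856144 to 116881441, minus strand), also called Harakiri, binds BCL2 and BCL-XL. It had 7.517, 7.096 and 7.414 CPM in shControl, and 0.3023, 0.3672 and 0.3318 CPM in shCK5. All shCK5 libraries were low, from 24 to 28 counts each in them, and the log2 fold change was -4.45 (SE 0.146; edgeR adjusted p = 1.87e-19). BMF (chromosome 15, 40087890 to 40108892, minus strand), which is tethered to the cytoskeleton and is linked to death on loss of attachment, had 31.7, 28.09 and 32.51 CPM in shControl, and 2.96, 3.108 and 3.512 CPM in shCK5. It fell by 3.27 on the log2 scale (SE 0.0753; edgeR adjusted p = 1.16e-22), with a wide gap between the groups.

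BIK (chromosome 22, 43110748 to 43129712, plus strand), a BH3-only protein of the endoplasmic reticulum, had 9.007, 8.487 and 8.946 CPM in shControl, and 2.847, 2.951 and 2.876 CPM in shCK5 (log2 fold change -1.61, SE 0.0903; edgeR adjusted p = 1.66e-14). BID (chromosome 22, 17734138 to 17774770, minus strand), which caspase 8 cleaves to link death receptors to mitochondria, had 121.4, 124.9 and 127.4 CPM in shControl, and 52.14, 50.4 and 53.15 CPM in shCK5 (log2 fold change -1.26, SE 0.0323; edgeR adjusted p = 1.04e-21). BCL2L11 (chromosome 2, 111119378 to 111168447, plus strand), which encodes BIM, had 58.43, 57.19 and 56.17 CPM in shControl, and 26.39, 25.52 and 24.42 CPM in shCK5 (log2 fold change -1.17, SE 0.0402; edgeR adjusted p = 5.34e-19). In each of these genes all 3 shCK5 libraries lay below all 3 shControl libraries. BCL2L11 shares 10.9% of its exon bases with MIR4435-2HG on the other strand, which had 102.4 CPM on average in shControl and 176.2 in shCK5.

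The members that rose did so by less. PMAIP1, which encodes NOXA, an antagonist of MCL1, went from 29.08 ± 1.41 to 41.81 ± 0.621 CPM (log2 fold change 0.52, SE 0.0425). BAD, whose protein is held inactive by phosphorylation, went from 3.443 ± 0.0906 to 5.784 ± 0.15 CPM (log2 fold change 0.75, SE 0.0979). BAD shares 23.7% of its exon bases with GPR137 on the opposite strand, whose level was 68.96 CPM in shControl and 51.28 CPM in shCK5. BBC3, which encodes PUMA, a p53 target like BAX and PMAIP1, had 7.418 ± 0.618 and 7.302 ± 0.056 CPM, with overlapping groups (log2 fold change -0.02, edgeR adjusted p = 0.809).

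Per exon length, the 8 BH3-only genes summed to 69.95 ± 1.39 in shControl and 43.55 ± 0.413 in shCK5 (CPM per kb; SD, n = 3 each). BID was the largest part in shControl, at 40.1% ± 0.73 of the sum, and PMAIP1 in shCK5, at 42.9% ± 0.26. PMAIP1 had held 18.6% ± 0.61 in shControl, and BID held 26.8% ± 0.61 in shCK5. This order depends on the division by exon length, since in CPM BID stayed above PMAIP1 in shCK5 (means 51.9 and 41.81). HRK and BMF together made up under 10% of the sum in shControl, so the genes with the largest folds were not those that carried most of the transcript.

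Among the less typical BCL2 relatives, BCL2L12 rose from 50.31 ± 0.732 to 73.18 ± 1.02 CPM (log2 fold change 0.54, SE 0.033). BCL2L12 shares 33.1% of its exon bases with IRF3 on the opposite strand, which had 90.81 CPM on average in shControl and 65.36 in shCK5. BCL2L13, a mitochondrial outer membrane protein with a role in mitophagy, fell from 76.28 ± 1.43 to 54.33 ± 0.475 CPM (log2 fold change -0.49, SE 0.0325).

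**Figure D3:**
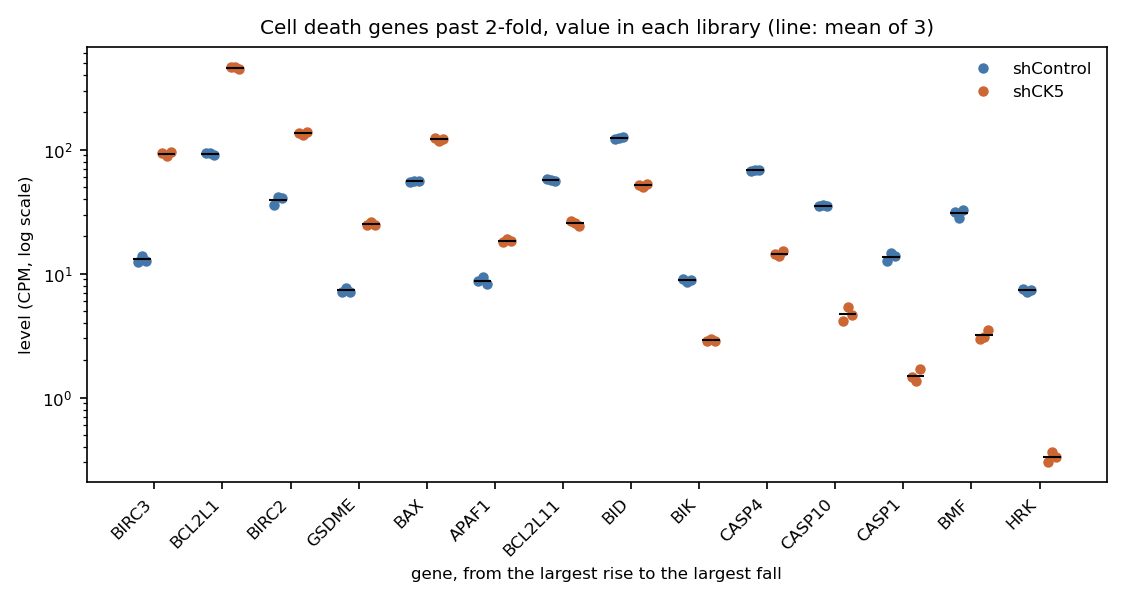
Level in CPM (log axis) in each of the 6 libraries of the 14 cell death genes past 2-fold, from the largest rise to the largest fall; black lines are means of 3 libraries. The groups do not overlap for any of the 14, from BIRC3 (12.43 to 13.92 against 89.1 to 96.12 CPM) to HRK (7.096 to 7.517 against 0.3023 to 0.3672 CPM).

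No caspase on the list rose, while 40.9% of all genes tested did. Of the 5 apoptotic caspases, 4 fell and CASP9 did not pass, but only CASP10 was past 2-fold. That is 80% called against 82.7% of all genes tested, and 20% past 2-fold against 44%. Both inflammatory caspases fell by more than 2-fold, as did 24.4% of all genes tested. CASP10 (chromosome 2, 201182881 to 201229406, plus strand), a death receptor initiator caspase and the closest relative of CASP8, had 35.14, 35.93 and 35.27 CPM in shControl, and 4.182, 5.351 and 4.618 CPM in shCK5. The log2 fold change was -2.91 (SE 0.0666; edgeR adjusted p = 1e-22), a 7.52-fold fall.

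CASP8 itself (chromosome 2, 201233443 to 201287711, plus strand) had 39.56, 38.89 and 38.36 CPM in shControl, and 32.37, 33.77 and 32.13 CPM in shCK5. This was a fall without overlap but of 1.19-fold only (log2 fold change -0.25, SE 0.04; edgeR adjusted p = 3.76e-06). CASP2, activated by the PIDD1 complex, and CASP6, an executioner, had log2 fold changes of -0.28 each (SE 0.0312 and 0.0494; edgeR adjusted p = 8.17e-09 and 1.37e-05). CASP9, the apoptosome caspase, had 9.744 ± 0.203 and 8.79 ± 0.497 CPM. It did not pass (log2 fold change -0.15, edgeR adjusted p = 0.0616), although its groups did not overlap, and it passed with libraries scaled by total count alone (-0.285, edgeR adjusted p = 0.00093). Per exon length CASP10 held 12.8% ± 0.13 of the summed apoptotic caspases in shControl and 2.3% ± 0.3 in shCK5.

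CASP1 (chromosome 11, 105025443 to 105035250, minus strand), the protease that matures interleukin 1 beta, had 12.59, 14.57 and 13.88 CPM in shControl, and 1.461, 1.351 and 1.687 CPM in shCK5. Its log2 fold change was -3.19 (SE 0.1; edgeR adjusted p = 7.72e-20), a 9.13-fold fall with no overlap. CASP4 (chromosome 11, 104942866 to 104969436, minus strand), which senses lipopolysaccharide in the cytosol, had 67.37, 68.32 and 68.14 CPM in shControl, and 14.37, 13.95 and 15.1 CPM in shCK5 (log2 fold change -2.23, SE 0.0416; edgeR adjusted p = 1.4e-24). Leukocytes express CASP1 strongly. The 7 leukocyte markers summed to 5.679 to 6.953 CPM in shControl and 1.364 to 1.713 CPM in shCK5, and their part in the fall of CASP1 was not tested.

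The apoptosome genes moved apart. APAF1 (chromosome 12, 98645141 to 98735433, plus strand), the scaffold that activates CASP9, had 8.725, 9.415 and 8.264 CPM in shControl, and 17.96, 19.21 and 18.35 CPM in shCK5. All shCK5 libraries were higher, with a log2 difference of 1.07 (SE 0.0643; adjusted p by edgeR = 6.65e-14). APAF1 shares 9.48% of its exon bases with ANKS1B on the opposite strand, which had 10.52 CPM on average in shControl and 0.5034 in shCK5. CYCS, which encodes cytochrome c and has many pseudogene copies that could share its reads, had 185.5 ± 6.31 and 163.2 ± 3.67 CPM (log2 fold change -0.18, SE 0.0296; edgeR adjusted p = 3.76e-06). DIABLO, which encodes the IAP antagonist SMAC, was listed at 0 in all 6 libraries, and this was not read as lack of expression.

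Of the 3 IAP genes, BIRC2 and BIRC3 rose and XIAP did not pass. That is 66.7% called against 82.7% of all genes tested, and 66.7% past 2-fold against 44%. BIRC3 (ENSG00000023445.13, chromosome 11, 102317450 to 102339403, plus strand), which encodes cIAP2, a ubiquitin ligase of the TNF receptor complex and a known NF-kappaB target, had 12.43, 13.92 and 12.74 CPM in shControl, and 93.31, 89.1 and 96.12 CPM in shCK5. Its log2 difference of 2.83 (SE 0.0449; adjusted p by edgeR = 4.86e-26), or 7.12-fold, was the largest rise of the 34 tested genes. BIRC2 (ENSG00000110330.8, chromosome 11, 102347211 to 102378670, plus strand), which encodes cIAP1, had 36.07, 41.35 and 40.51 CPM in shControl, and 136.9, 130.8 and 139.7 CPM in shCK5 (log2 fold change 1.79, SE 0.0408; edgeR adjusted p = 9.45e-23). Neither gene's groups came near each other.

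XIAP (chromosome X, 123859724 to 123913979, plus strand), the IAP that inhibits caspases directly, had 58.56, 62.93 and 61.82 CPM in shControl, and 63.56, 61.31 and 63.85 CPM in shCK5. The groups overlapped (log2 fold change 0.04, SE 0.0354; edgeR adjusted p = 0.277), and with libraries scaled by total count alone XIAP was lower by a small amount (-0.095, edgeR adjusted p = 0.0201). Per exon length the 3 genes summed to 17.18 ± 0.96 in shControl and 49.29 ± 1.62 in shCK5 (CPM per kb; SD, n = 3 each). The part of XIAP in that sum was 39.4% ± 0.76 in shControl and 14.1% ± 0.17 in shCK5, while BIRC3 went from 10.1% ± 0.35 to 25.1% ± 0.15.

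The promoters of some members with large changes are shown to set the neighbouring pair BIRC3 and BIRC2, which rose together, beside BCL2L1, which also rose, and beside HRK, BMF and CASP4, which fell. CASP1 and CASP10, which fell by more than CASP4, had no promoter entry. Each is the 250 bases before a RefSeq start (GRCh38.p14), 5′ to 3′ on the gene's strand, and capitals mark matches to the motifs listed after them. The windows are chr11:102317234-102317483 (plus strand) for BIRC3 and chr11:102346964-102347213 (plus strand) for BIRC2. They are chr20:31723964-31724213 (minus strand) for BCL2L1, chr12:116881442-116881691 (minus strand) for HRK, chr15:40108880-40109129 (minus strand) for BMF and chr11:104968575-104968824 (minus strand) for CASP4.
BIRC3: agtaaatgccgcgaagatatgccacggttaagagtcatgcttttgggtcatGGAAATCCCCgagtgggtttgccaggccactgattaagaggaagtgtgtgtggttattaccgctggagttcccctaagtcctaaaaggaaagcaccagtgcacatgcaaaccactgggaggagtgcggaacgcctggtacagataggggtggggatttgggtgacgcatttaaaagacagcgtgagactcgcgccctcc
BIRC2: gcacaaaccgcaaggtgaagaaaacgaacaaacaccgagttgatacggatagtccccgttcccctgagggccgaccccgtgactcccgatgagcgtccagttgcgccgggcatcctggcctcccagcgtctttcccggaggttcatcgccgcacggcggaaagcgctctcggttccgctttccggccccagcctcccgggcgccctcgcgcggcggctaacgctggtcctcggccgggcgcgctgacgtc
BCL2L1: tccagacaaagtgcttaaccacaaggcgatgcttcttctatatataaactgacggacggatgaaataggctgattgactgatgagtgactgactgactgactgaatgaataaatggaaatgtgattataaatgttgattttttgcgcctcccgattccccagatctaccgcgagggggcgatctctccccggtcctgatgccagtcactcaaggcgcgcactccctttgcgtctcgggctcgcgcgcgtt
HRK: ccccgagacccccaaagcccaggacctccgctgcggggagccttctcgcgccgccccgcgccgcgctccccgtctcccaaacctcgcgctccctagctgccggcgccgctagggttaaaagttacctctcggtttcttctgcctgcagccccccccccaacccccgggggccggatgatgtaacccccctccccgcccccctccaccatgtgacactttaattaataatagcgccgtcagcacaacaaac
BMF: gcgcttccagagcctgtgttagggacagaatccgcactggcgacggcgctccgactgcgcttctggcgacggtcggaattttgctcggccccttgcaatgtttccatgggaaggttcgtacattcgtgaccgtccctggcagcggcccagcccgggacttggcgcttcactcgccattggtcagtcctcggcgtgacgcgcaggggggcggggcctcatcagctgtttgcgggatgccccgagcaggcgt
CASP4: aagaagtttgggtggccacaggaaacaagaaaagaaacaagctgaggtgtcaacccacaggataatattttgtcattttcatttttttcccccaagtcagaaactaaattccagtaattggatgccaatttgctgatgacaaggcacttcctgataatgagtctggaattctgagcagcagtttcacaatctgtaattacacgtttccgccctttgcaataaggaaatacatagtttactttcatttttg

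CpG content differed widely among these promoters. The BIRC2 window held 33 CpG dinucleotides, more than 91.9% of all 35114 promoter windows, whereas that of its neighbour BIRC3 held 11, the median of all windows. The windows of BMF and HRK, which fell, held 26 and 22, that of BCL2L1 17, and that of CASP4 only 2, with fewer in 14.7% of all windows. In all, 31 of the 39 genes had an entry, with 56 starts between them. BIRC2, BCL2L1 and BMF have 2 starts each, of which the one farther upstream is printed. The window of the other start held 38 CpG for BIRC2, 12 for BCL2L1 and 0 for BMF.

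Motifs were searched on both strands in those 56 windows. The NF-kappaB consensus matched in 4, among them BIRC3, where it lies on the opposite strand and begins 199 bases before the start, and 5.07% of all windows held it. The others were BOK, BCL2L11 and CASP8. The interferon response element consensus matched in 3 windows, 1 of BCL2A1 and an overlapping pair of RIPK1, against 3.02% of all windows. The AP-1 pattern (TGANTCA) matched in 4, against 6.57%, and the TEAD pattern (GGAATG) in 2, against 11.9%. The E-box bound by ZEB and SNAI repressors (CACCTG) matched in 7, against 17.5%, and the FOXO pattern (GTAAACA) in 1, that of BCL2L11, against 2.98%. Of the windows printed, only that of BIRC3 held a match. The other BMF start, which is not printed, held 2 E-box matches and no CpG. A match is a description of these letters and not a bound site.

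Several members lie beside each other, and neighbours did not always move alike. To describe this, the 3 nearest protein-coding genes on each side were taken for BCL2L1 and for 4 groups of adjacent members, chosen after their values were seen. BIRC3 and BIRC2 span 61.2 kb of chromosome 11 and both rose, but YAP1, the next gene before them, had a log2 fold change of -0.13 (SE 0.0282), and TMEM123, the next after them, of 0.27 (SE 0.0286). Farther out, CEP126 rose from 0.1727 ± 0.134 to 7.634 ± 0.504 CPM (log2 fold change 5.42, SE 0.21), and MMP7 fell by 4.85 (SE 0.245). Of the 5 neighbours tested, 2 rose and 3 fell. Around BCL2L1, 3 of the 6 neighbours were tested: ID1 and TPX2 also rose past 2-fold (log2 fold changes 1.58 and 1.35), and MYLK2 fell (-1.51, SE 0.2).

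CASP4 and CASP1, also on chromosome 11, both fell within 92.4 kb. CASP5 between them was near the detection limit (0.1985 and 0.1347 CPM) and did not pass. CARD16, a close copy of the start of CASP1 that could share its reads, fell from 3.365 ± 0.254 to 0.9884 ± 0.197 CPM (log2 fold change -1.77, SE 0.164). Of the 4 neighbours tested, DYNC2H1 was the only one that rose (log2 fold change 2.22, SE 0.119) and CARD16 the only one that fell.

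On chromosome 2, CFLAR, CASP10 and CASP8 lie within 172 kb and all fell, with log2 fold changes of -0.60, -2.91 and -0.25, so CASP10 stood well below both of its neighbours. Of the 6 genes around them, 2 rose, 3 fell and ORC2 did not pass. On chromosome 22, BCL2L13 and BID fell together with all 6 genes around them, among them MICAL3 (log2 fold change -1.21, SE 0.0353), PEX26 (-0.79, SE 0.0338) and ATP6V1E1 (-0.23, SE 0.0361). The share of all genes tested that were lower was 41.7%.

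**Figure D4:**
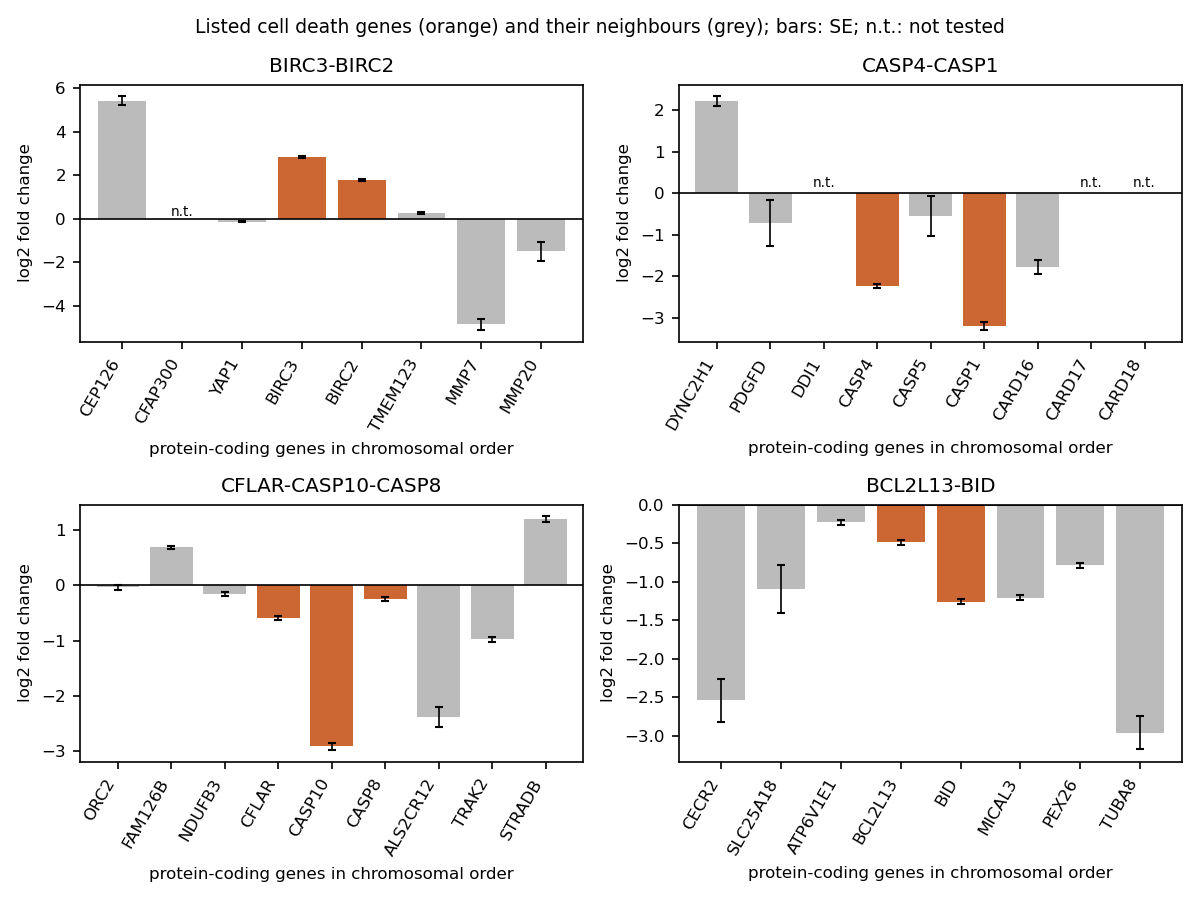
Log2 fold change of 4 groups of adjacent cell death genes (orange) and the 3 nearest protein-coding genes on each side (grey), in chromosomal order; bars are standard errors, and n.t. marks genes not tested. BIRC3 (2.83) and BIRC2 (1.79) stand between YAP1 (-0.13) and TMEM123 (0.27), whereas all 8 genes around and including BCL2L13 and BID lie below 0.

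Adaptors of the death receptor complex changed by small amounts. CFLAR, which encodes FLIP, the catalytically inactive CASP8 relative that blocks its activation, fell from 72.14 ± 1.27 to 47.62 ± 2.22 CPM (log2 fold change -0.60, SE 0.0367; edgeR adjusted p = 9.7e-14). TRADD, which docks to the TNF receptor, fell by 0.26 (SE 0.0515), and RIPK1, the kinase it recruits, rose by 0.29 (SE 0.0341). FADD, the adaptor of CASP8, went from 19.94 ± 0.774 to 22.51 ± 0.575 CPM (log2 fold change 0.18, SE 0.0503; edgeR adjusted p = 0.00265), but did not pass with libraries scaled by total count alone (0.039, edgeR adjusted p = 0.475). FADD shares 54.9% of its exon bases with an antisense gene that has no row of its own. Summed per exon length, the 4 genes had 33.98 ± 0.67 CPM per kb in shControl and 35.64 ± 0.46 in shCK5.

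Of the 4 listed genes of lytic death, MLKL, GSDMD and GSDME rose and RIPK3 was not tested. That is 100% of the 3 tested, against 82.7% of all genes called (40.9% higher). Past 2-fold were 33.3% against 44%. GSDME (chromosome 7, 24698351 to 24758113, minus strand), a gasdermin whose cleavage turns apoptosis into lysis, had 7.154, 7.698 and 7.135 CPM in shControl, and 24.72, 26.31 and 24.53 CPM in shCK5. The groups stood far apart, with a log2 difference of 1.78 (SE 0.0602; adjusted p by edgeR = 3.87e-19). GSDMD, the gasdermin cut by inflammatory caspases, rose from 47.22 ± 0.678 to 67.84 ± 1.5 CPM (log2 fold change 0.52, SE 0.0342), and MLKL, the necroptosis executor, from 19.69 ± 1.04 to 26.49 ± 2.1 CPM (log2 fold change 0.43, SE 0.0569). GSDMD thus rose while CASP1 and CASP4, the caspases that cut it, fell. RIPK3, the kinase that activates MLKL, was barely detected, with 12 counts in all in shControl and 2 in shCK5, and was not tested.

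The rest of the pathway was described with 69 further genes in 8 lists. Of these, 63 were tested, 31 rose, 26 fell and 6 did not pass, a share of 90.5% called against 82.7% of all genes. Past 2-fold were 15 higher and 10 lower genes, 39.7% of the 63 against 44% of all genes (19.6% higher and 24.4% lower).

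Most death receptor genes rose, and both ligand genes tested fell. Of 11 genes for receptors, decoys and ligands, 7 rose, 3 fell and FASLG was not tested. That is 100% of those tested, against 82.7% of all genes called (40.9% higher and 41.7% lower). Past 2-fold were 70% against 44%. TNFRSF10B, which encodes the TRAIL receptor DR5, went from 42.9 to 119.1 CPM (log2 fold change 1.47), FAS from 1.502 to 3.844 CPM (1.35), and the decoy receptor gene TNFRSF10D from 7.841 ± 1.21 to 31.03 ± 1.54 CPM (1.99, SE 0.0731). TNF fell from 7.16 ± 0.192 to 0.1397 ± 0.0254 CPM (log2 fold change -5.66, SE 0.173), and TNFSF10, which encodes TRAIL, from 14.18 to 7.894 CPM (-0.84). TNFRSF25, a receptor, was the other gene that fell (-2.67).

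Among the other caspases, CASP14, a caspase of keratinocyte differentiation, fell from 543.4 ± 33 to 9.407 ± 0.845 CPM (log2 fold change -5.85, SE 0.0513). Among other IAPs and their antagonists, 3 of 5 tested rose and 2 fell, or 100% called against 82.7% of all genes. NAIP, which lies in a duplicated region whose copies could share reads, rose from 2.032 ± 0.182 to 21.48 ± 1.37 CPM (log2 fold change 3.40, SE 0.0838), and XAF1, an XIAP antagonist, from 0.6809 to 4.731 CPM (2.81). BIRC5, the mitotic IAP survivin, fell by 0.28 (SE 0.0288).

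Other BCL2 relatives and BNIP proteins gave 2 higher and 1 lower gene of 5 tested, or 60% called against 82.7% of all genes. BNIP3, a mitophagy receptor induced by hypoxia, rose from 23.29 ± 0.955 to 114 ± 0.93 CPM (log2 fold change 2.29, SE 0.0362), and BCL2L14 fell from 9.032 ± 0.19 to 4.142 ± 0.316 CPM (-1.13, SE 0.0861). Of 8 mitochondrial channel and nuclease genes, 4 rose and 3 fell, or 87.5% called against 82.7% of all genes. AIFM2, which encodes the ferroptosis suppressor FSP1, rose by 1.76 (SE 0.0394), while AIFM1, the apoptosis-inducing factor, fell by 0.64 (SE 0.0319).

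Caspase adaptors and TNF receptor complex genes rose in 4 and fell in 8 of 13, or 92.3% called against 82.7% of all genes, and 15.4% were past 2-fold against 44%. TRAF1, which binds cIAP1 and cIAP2 through TRAF2, rose from 2.165 ± 0.373 to 22.56 ± 0.414 CPM (log2 fold change 3.38, SE 0.0862). TRAF2 rose by 0.65. TNFAIP3, the NF-kappaB-induced deubiquitinase A20, fell from 19.99 ± 0.587 to 9.599 ± 0.667 CPM (-1.06, SE 0.0625). BIRC3 and TRAF1 thus rose while TNFAIP3 and TNF, which are also known NF-kappaB targets, fell. A link of NF-kappaB to these changes was not tested.

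Inflammasome components and cytokine substrates rose in 6 and fell in 3 of 10 tested, or 90% called against 82.7% of all genes. Past 2-fold were 80% against 44%. The sensor AIM2 rose from 4 counts in all in shControl to 1.833 ± 0.313 CPM, and the sensor NLRP1 from 1.318 to 33.37 CPM (log2 fold change 4.66). NINJ1, which ruptures the membrane in lytic death, fell by 1.10. The gasdermin genes GSDMC and GSDMB went the other way from GSDMD and GSDME, with log2 fold changes of -4.95 (SE 0.118) and -2.98. Of the regulators of MCL1 turnover and BH3-only genes, 3 rose and 5 fell, or 100% called against 82.7% of all genes. USP9X, a deubiquitinase of MCL1, rose by 0.88 (SE 0.028), TP63 fell from 12.62 ± 1.41 to 0.6777 ± 0.0711 CPM (-4.22, SE 0.122), and FOXO3, a known activator of BCL2L11, fell from 160.1 to 54.44 CPM (-1.56). FOXO1, the other FOXO gene of that list, rose from 5.574 to 10.01 CPM (0.85). A link of either gene to the level of BCL2L11 was not tested. Values named in these lists beyond the largest rise and fall were chosen after they were seen.

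**Figure D5:**
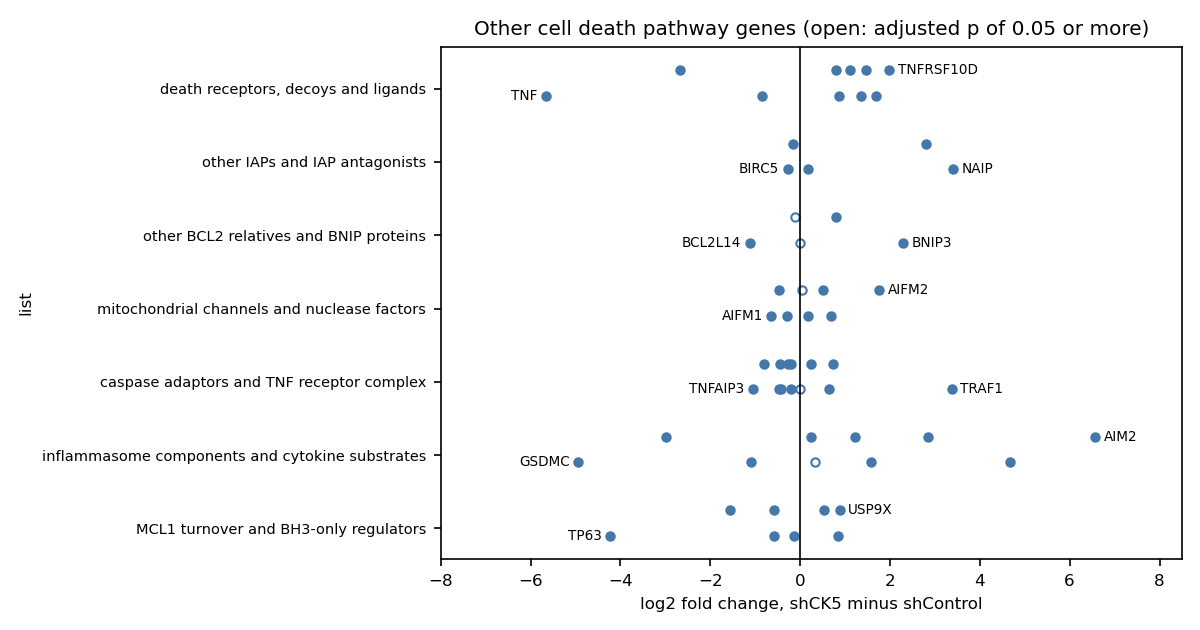
Log2 fold change (shCK5 minus shControl) of the tested genes of 7 of the 8 other cell death pathway lists (the list of other caspases is not drawn), with the most extreme gene on each side named; filled points passed an adjusted p of 0.05. TNF (-5.66) and AIM2 (6.57) mark the range of the genes drawn, and 7 of the 10 tested death receptor and ligand genes lie above 0.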

How the data were processed

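RNA sequencing counts of 6 libraries were used, grouped by the sample titles. The authors deposited a table of raw counts for named genes, not normalized. Tools listed in the submitters' processing notes are STAR, Cufflinks, cutadapt and SAMtools, with the build GRCh38. No source used here gives the counting program, its strand setting or its annotation.

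In R 4.3.3, edgeR 4.0.16 filtered rows with filterByExpr (19567 left), scaled libraries by TMM (factors 0.9499 to 1.056) and compared groups with its quasi-likelihood test without covariates, adjusted by Benjamini-Hochberg over all genes tested, threshold 0.05. Standard errors were derived from the F statistics. The fit was tested on simulated data. CPM use the scaled library size. Lengths and positions come from GENCODE 29 (GRCh38), which may not be the annotation the authors used. Levels per exon length use the union of all annotated exons. Promoters are from RefSeq (GRCh38.p14). Reads carry no molecular identifiers, so floors cover counting error only.

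The members and lists were chosen with earlier results of these data known. Full statistics were given to members past 2-fold with at least 1 CPM in a group, and to BCL2, BCL2L1, MCL1, BAX, BAK1, CASP8 and XIAP; of each pathway list, to the largest rise and fall with at least 1 CPM. Alternatives were DESeq2 1.42.0, library size alone, RLE factors, no filter, the replicate number as a block, and leaving out each library. Results for some listed genes are not reported here.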

Additional observations from a re-analysis of the deposited data

How the results depend on the processing

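The counts of higher and lower genes, members and pathway genes stayed within 1.5 times their reported values under all 11 alternatives. Over the tested members, 369 of 374 log2 fold changes kept their direction and their side of the threshold. The exceptions were BOK, which no longer passed without shCK5 replicate 1, FADD, which no longer passed with libraries scaled by total count alone, CASP9, which passed under that scaling, and the reversals of XIAP under that scaling (-0.095) and of BBC3, which lay between -0.076 and 0.0466 when 1 library was left out and was above 0 without shControl replicate 1 (edgeR adjusted p = 0.633). The cause was not tested. BCL2L2, untested in the report, entered the test and passed as lower past 2-fold with no filter on low counts and without shControl replicate 2, shControl replicate 3 or shCK5 replicate 1 (log2 fold change -1.57, -1.81, -1.55 and -2.15), which makes 9 lower members past 2-fold there instead of 8. It did not pass with DESeq2 or without any of the other 3 libraries.

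With the replicate number as a block, 15 members were higher and 16 lower, as without it, and 7918 of all genes were higher and 8008 lower. Same-numbered libraries did not deviate together (correlations across genes of -0.00606, 0.00752 and -0.0033), and libraries of different numbers gave -0.0216 to 0.0245. Scatter from counting alone would also give values near 0, so these correlations cannot tell whether the numbers pair the samples.

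Members with at least 1 CPM in both groups (33) varied within a group with a median coefficient of variation of 2.73%. BAK1 and DIABLO at 0, and BCL2A1 and RIPK3 with at most 12 counts a group, allow no comparison. BCL2L2, with 42 counts in shControl and 14 in shCK5, was compared only under the alternatives given above, and passed in some of them.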
